A study of Mus musculus with 21 samples.

Results

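Mature thymic cDC2 were compared with mature thymic cDC1 over all genes, to establish which of the genes that separate these conventional dendritic cell (cDC) subsets still separated them after maturation and which no longer did. The comparison rests on 6 of the 21 RNAseq libraries of the series, 3 of mature thymic cDC1 and 3 of mature thymic cDC2, chosen by their subset, tissue and maturation labels. All cells came from C57BL/6 (B6) mice aged 6 to 8 weeks, and each library was made from cells of pooled mice that had been enriched on CD11c beads and FACS-sorted. Mature cells were CCR7+ Esam+ in both subsets. The cDC1 gate took CD11c+ CD24+ CD11b- cells without B220, F4/80, Ly6g, Ly6c or DX5, and the cDC2 gate took CD11c+ CD11b+ cells without B220 or CD24. The labels name F4/80 exclusion in the cDC1 gate, whereas the study's text defines both cDC subsets as F4/80- and its sort stain included F4/80. Immature CCR7- Esam- cells served for comparison, namely thymic cDC1 (4 libraries) and cDC2 (3 libraries), and splenic cDC1 (5 libraries) and cDC2 (3 libraries). Splenic cDC1 replicates 4 and 5 share a label number. They were far closer to each other than the other pairs of that group, although not within counting error. Their chi-square per degree of freedom was 2.525, against 26.85 to 190.4 for the 9 other pairs, and they were counted as 1 sample. Splenic cDC1 replicate 1 carries the same number (58.69 and 51.49 with replicates 4 and 5). Immature thymic cDC1 replicates 3 and 4 also share a number (100.5). Splenic replicate 1 and these thymic libraries were kept as separate samples.

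In both subsets, maturation is the programme that carries a tissue dendritic cell from antigen sampling to antigen presentation. Mature cDCs express CCR7, which directs their migration, raise costimulatory ligands and display peptides that were loaded earlier. cDC1 depend on the transcription factors IRF8 and BATF3 and are known for cross-presentation and IL-12 production, whereas cDC2 depend on IRF4 and on factors such as ZEB2 and KLF4 and present antigen to CD4 T cells. In the thymus, cDCs present self-antigens to developing T cells and take part in negative selection and in the generation of regulatory T cells.

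The subset labels held for the genes that define them. Xcr1, the chemokine receptor that marks cDC1, was measured at 511, 253 and 557 normalized reads in the 3 mature cDC1 libraries and at 20.7, 25.1 and 11.0 in the 3 mature cDC2 libraries. Sirpa, the inhibitory receptor that marks cDC2, was measured at 409, 286 and 481 normalized reads in mature cDC1 and at 8425, 8398 and 5415 in mature cDC2. Both genes separated the groups without overlap. The receptor of the maturation gate, Ccr7, stood at 92666, 108480 and 129530 normalized reads in mature cDC1 and at 92491, 115570 and 91722 in mature cDC2, far above its means of 714 ± 179 (SD, n = 4) and 3419 ± 682 (SD, n = 3) in immature thymic cDC1 and cDC2.

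The mature libraries held 14782647, 15779540 and 39353600 reads for cDC1 and 34275977, 40119669 and 34976827 reads for cDC2, so that 2 of the 3 cDC1 libraries were shallower than the rest. Replicate 3 of mature cDC2 stood apart from the other 2 of its group. Its values were under 0.5 of both others in 11% of the 14970 tested genes, its correlation with them was 0.963 and 0.964 on the log2 scale against 0.988 between replicates 1 and 2, and the share of reads on the mitochondrial rRNA gene mt-Rnr2 was 0.127% against 0.0318% and 0.0368%. The summed level of 15 macrophage and monocyte markers was 41580, 49740 and 12430 normalized reads in the mature cDC2 libraries and 7385, 6884 and 10270 in the mature cDC1 libraries. It was thus highest in the 2 cDC2 libraries that resembled each other. Replicate 3 of mature cDC1 also differed, although not by correlation within its group. Replicates 1 and 2 of mature cDC1, both shallower, correlated at 0.928 with each other and at 0.94 and 0.936 with replicate 3. Replicate 3 correlated slightly more with cDC2 replicates 1 and 2 (0.944 and 0.945). It was above 2 times both other cDC1 libraries in 8.83% of tested genes and under 0.5 of both in 5.42%. It was the deepest of its group, and the highest of its group in C1qa, H2-Ab1 and the summed macrophage markers. Values with or without either library are given for many named genes that rest on it or move with these markers, but not for all. In sorted populations, fewer cells of a type and less RNA per cell cannot be told apart. No source used here says that the libraries of a group came from separate pools, so the p-values measure the spread between libraries, which may be technical in part.

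All tests were made on log2(normalized read count + 1) with limma, in a single fit over the 6 groups, and genes were called different when they exceeded 2-fold with a p, adjusted by Benjamini-Hochberg, below 0.1. Log2 differences are cDC2 minus cDC1 unless stated, with their standard errors (SE). In mature cells 2182 genes were called higher in cDC2, which is 14.6% of those tested, and 652 (4.36%) lower. In immature thymic cells the calls were 1644 higher (11%) and 812 lower (5.42%), and in spleen 1486 higher (9.93%) and 1003 lower (6.7%). The mature libraries of both subsets did not overlap in 32.8% of tested genes, and an exact permutation test of 3 against 3 libraries cannot give a two-sided p below 0.1 for a single gene. The excess of genes higher in mature cDC2 was present without replicate 3 of that group (2333 higher, 578 lower), with that replicate alone (1127 and 535), without replicate 3 of cDC1 (2686 and 903), with that one alone (1084 and 479), and after thinning all libraries to equal depth (2073 and 615).

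Genes called in splenic cDC2 against cDC1 were taken as subset identity genes, since the splenic values enter neither thymic difference. The splenic libraries do enter the variance of the single fit. With only the groups compared in the fit there were 1704 mature calls instead of 2834. Each identity gene was then followed into mature thymic cells. It was retained when it was called in the same direction and reversed when it was called in the opposite direction. It was converged when it was not called in mature cells and its difference of differences was called against the splenic direction. The difference of differences is the mature thymic subset difference minus the immature thymic one. A call in immature thymic cells was not required. Of the 1486 genes higher in splenic cDC2, 646 (43.5%) were retained, 278 (18.7%) converged and 22 (1.48%) reversed, against 14.6% of all tested genes called higher and 4.36% called lower in mature cDC2. Reversal was thus below the share of all genes called in that direction. Of the 1003 genes higher in splenic cDC1, 216 (21.5%) were retained, 228 (22.7%) converged and 94 (9.37%) reversed, against 4.36% of all tested genes called lower and 14.6% called higher in mature cDC2, and reversal was again below it. The remaining 540 and 465 genes met none of these conditions. No minimum level in mature cells was required, so converged and reversed genes include some near the count floor in both mature subsets. Clec4b2, a converged cDC1-high gene, was at 0, 0 and 0 normalized reads in mature cDC1 and 0.77, 1.39 and 0 in mature cDC2. For such genes convergence is a loss of detection in both subsets, and their share was not counted.

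In immature thymic cells, 947 of the cDC2-high and 522 of the cDC1-high identity genes were called in their splenic direction. Among these, 526 (55.5%) of the cDC2-high and 168 (32.2%) of the cDC1-high genes were retained in mature cells, while 255 (26.9%) and 205 (39.3%) converged. The median difference of cDC2-high identity genes was 2.05 in spleen, 1.66 in immature thymic and 0.979 in mature thymic cells on the log2 scale. That of cDC1-high genes was -1.95, -1.2 and -0.264, against 0.142 over all tested genes in mature cells. Without cDC2 replicate 3, 678 cDC2-high genes were retained (615 of the 646) and 206 cDC1-high genes (193 of the 216). With replicate 3 alone the retained genes were 409 and 203, and the reversed cDC1-high genes, 118 without it, were 44. Without cDC1 replicate 3 the retained genes were 719 and 206 and the reversed cDC1-high genes 141, and with it alone they were 463, 217 and 50.

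**Figure D1:**
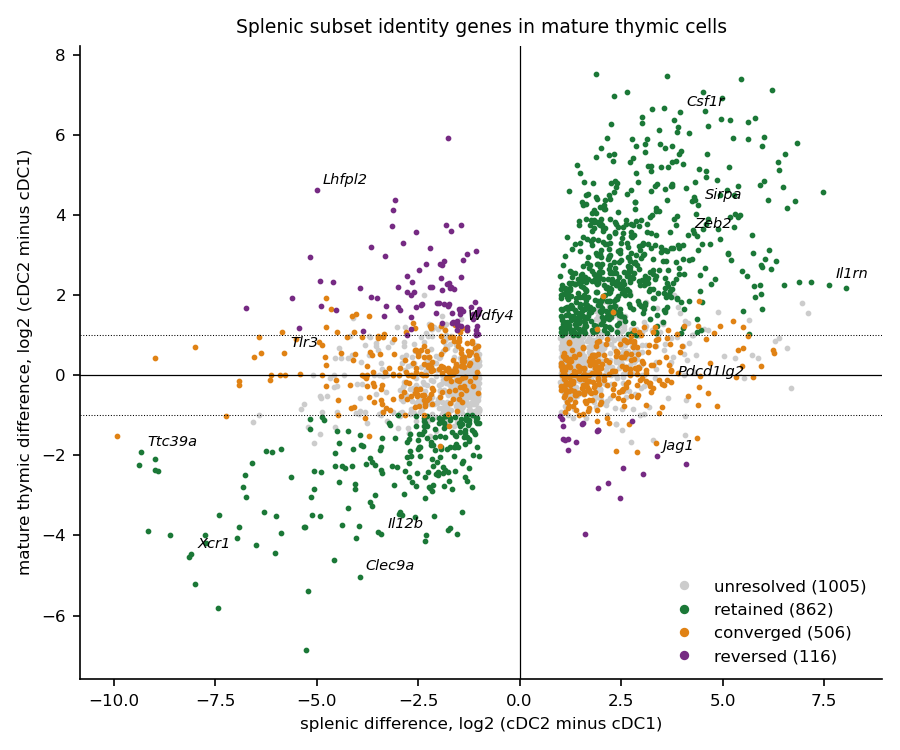
Subset difference of splenic identity genes in spleen (x axis, log2 of cDC2 over cDC1) against the difference in mature thymic cells (y axis, same scale), 1 point a gene, coloured by fate, with dotted lines at a 2-fold difference. The 862 retained genes lie in the upper right and lower left, the 506 converged genes lie mostly between the dotted lines, the 116 reversed genes lie in the other 2 corners, and 1005 genes were unresolved.

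The genes that converged did so mostly through a change in cDC1. Among the 278 converged cDC2-high genes, 202 rose in cDC1 with maturation without falling in cDC2, 119 of them rising in both subsets, while 55 fell in cDC2 without rising in cDC1. Among the 228 converged cDC1-high genes, 156 fell in cDC1 without rising in cDC2, 68 of them falling in both, while 54 rose in cDC2 without falling in cDC1. Of the 94 reversed cDC1-high genes, 75 fell in cDC1 without a rise in cDC2. These counts stand against a background in which 21.3% of tested genes rose and 24.5% fell with maturation in cDC1, and 18.6% rose and 17% fell in cDC2.

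**Figure D2:**
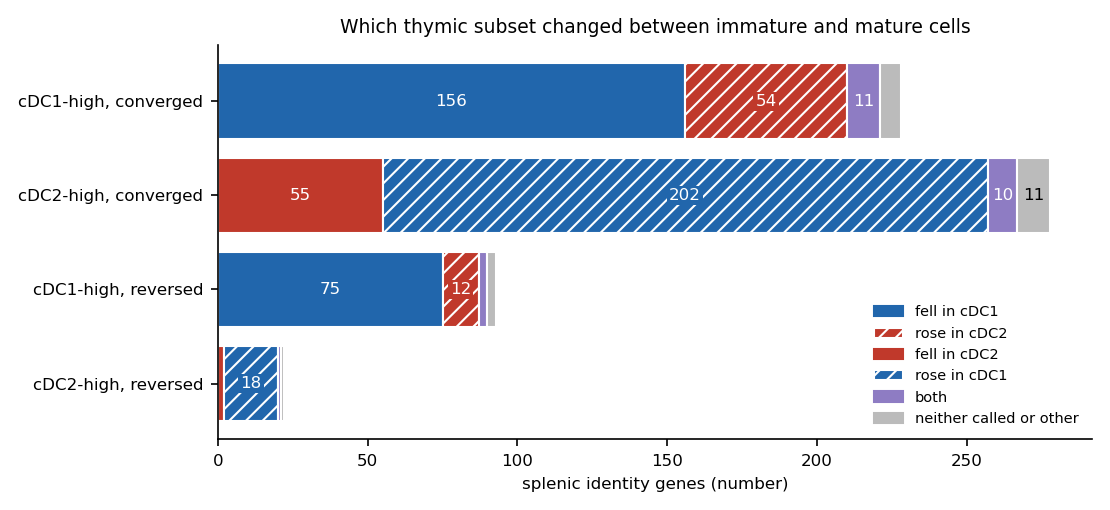
Converged and reversed identity genes by the subset in which they changed between immature and mature thymic cells. The x axis counts genes, each bar is 1 fate and direction, blue marks a change in cDC1 and red in cDC2 toward the other subset, and hatching marks a rise. A rise in cDC1 without a fall in cDC2 makes up 202 of 278 converged cDC2-high genes, and a fall in cDC1 without a rise in cDC2 makes up 156 of 228 converged cDC1-high genes.

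Among 32 named cDC1 identity genes, 13 were lower in mature cDC2, against 4.36% of all tested genes, 3 were higher and 16 were not called. The median difference of the list was -4.9 in spleen, -3.66 in immature thymic and -0.681 in mature thymic cells, and 24 of the 32 moved toward cDC2 by the difference of differences, against 8.34% of all tested genes. Surface receptors and transcription factors were among the retained genes. Clec9a (ENSMUSG00000046080), the receptor for actin exposed on dead cells, measured 1268, 1429.7 and 925 normalized reads in mature cDC1 and 26.9, 39.7 and 41.6 in mature cDC2. Its difference was -5.03 (SE 0.23, limma adjusted p = 4.43e-11), and its change from the immature difference of -4.36 was not called (adjusted p = 0.176). With maturation Clec9a fell by 2.55 in cDC1 and fell by 3.22 in cDC2 on the log2 scale.

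Xcr1 (ENSMUSG00000060509, chromosome 9, 123852315 to 123862029, GRCm38) remained lower in mature cDC2 by -4.46 (SE 0.43, limma adjusted p = 3.26e-07), with a narrowing of 2.09 (SE 0.59, adjusted p = 0.0222) from -6.56 in immature cells. The narrowing was not called within lane 8, which held all mature libraries (1.48, adjusted p = 0.114), or with replicate 3 of cDC1 or cDC2 alone (1.67 and 1.44). It fell by 5.51 on the log2 scale in cDC1, from a mean of 19098 ± 2044 normalized reads (SD, n = 4). Cadm1, an adhesion molecule used as a cDC1 marker across species, measured 516, 633 and 619.6 in mature cDC1 and 139, 118 and 45.5 in mature cDC2, and narrowed from -4.96 to -2.68. Itgae, which encodes CD103, kept a difference of -1.91, while its level fell by 6.31 in cDC1 and fell by 6.69 in cDC2. Of the 13 retained genes of the list, 10 fell in cDC1 with maturation and 8 of these also fell in cDC2. Over all 216 retained cDC1-high genes, 61 fell in cDC1, 37 fell in both subsets and 77 rose in cDC1.

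Cd8a, the co-receptor chain that marks lymphoid cDC1, measured 6798, 5739.8 and 9342 normalized reads in mature cDC1 and 1968, 1677 and 2099 in mature cDC2, a difference of -1.91 (SE 0.23, limma adjusted p = 3.82e-06), and its change with maturation was 0.13 in cDC1 and 0.85 in cDC2, neither called. Ifi205 kept its immature difference (-3.41 against -3.40) and fell by 4.24 in cDC1 and fell by 4.25 in cDC2. Snx22, Cd36, Cd207 and Gcsam narrowed and stayed called, at -2.43, -2.26, -2.78 and -2.24, and Plpp1 stayed at -3.49.

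The transcription factor of the cDC1 lineage, Irf8 (ENSMUSG00000041515, chromosome 8, 120736358 to 120756694), measured 33498, 33314 and 36006 normalized reads in mature cDC1 and 13229, 17175 and 10958 in mature cDC2. The difference of -1.34 (SE 0.25, limma adjusted p = 0.000553) had been -4.49 in immature cells, where the means were 54208 ± 3833 (SD, n = 4) and 2467 ± 655 (SD, n = 3). It narrowed by 3.15 (SE 0.34, adjusted p = 3.62e-06), with a rise of 2.49 in cDC2 and no called change in cDC1 (-0.66). Ttc39a, a gene with a splenic difference of -9.31, rose by 6.38 in cDC2, from 27.1 ± 8.84 to 2441, 2053 and 2313 normalized reads, while mature cDC1 held 8631, 8608 and 8575. Its difference shrank from -6.97 to -1.93 and remained called.

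**Figure D3:**
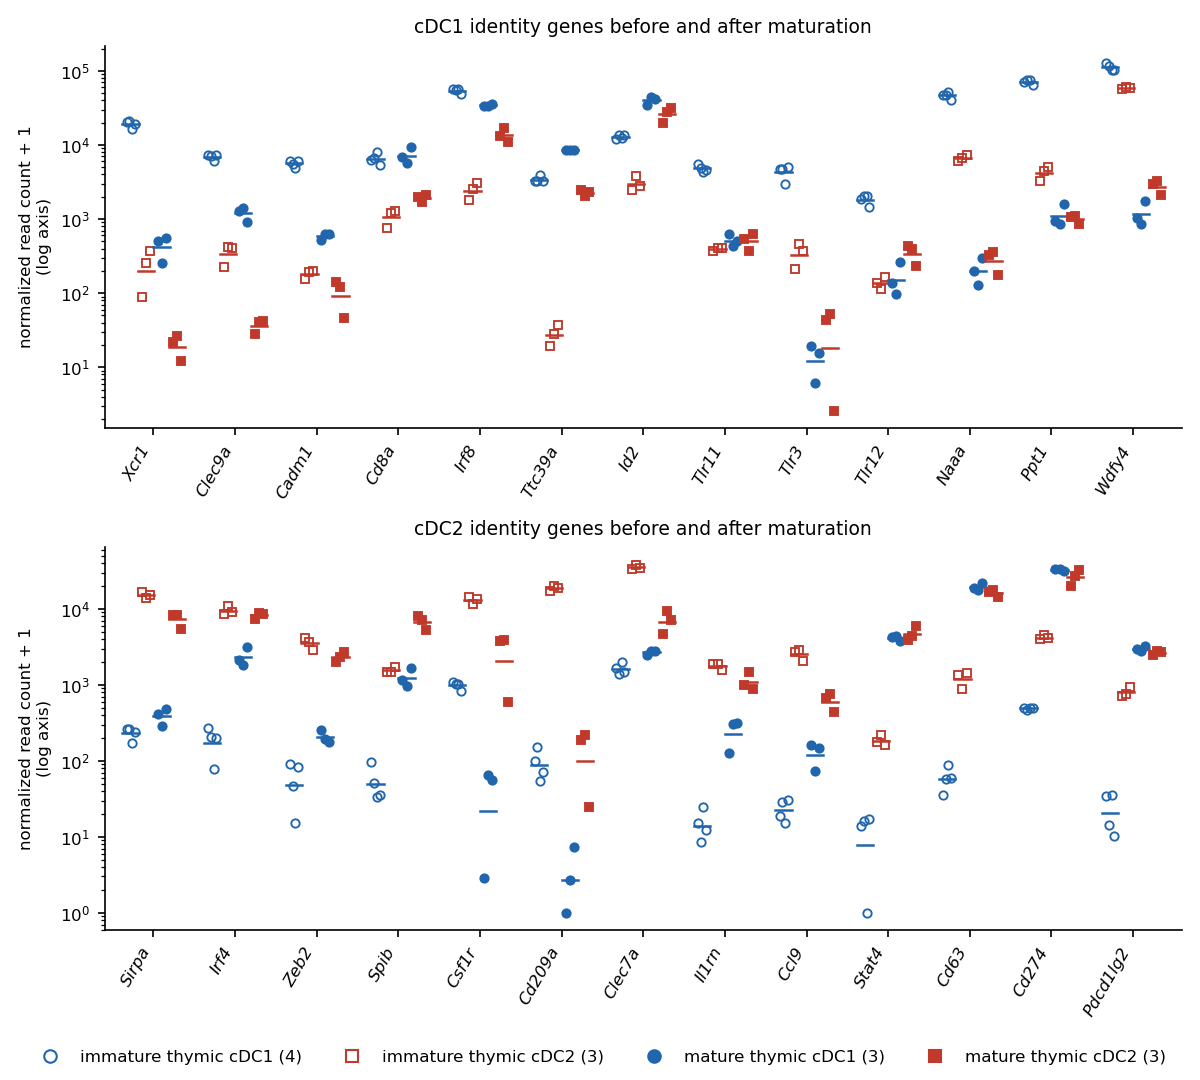
Normalized read counts (plus 1, log axis) of cDC1 and cDC2 identity genes in each library of immature and mature thymic cDC1 and cDC2, with lines at the geometric mean of each group. Clec9a, Xcr1 and Sirpa stay apart in mature cells, Irf8 approaches a common level from the cDC2 side, and Tlr11 meets at 371 to 634 normalized reads.

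Other cDC1 genes lost their difference, and 13 of the 30 listed genes that were splenic identity genes converged. Tlr11, the endosomal receptor for profilin, measured 625, 432 and 499 normalized reads in mature cDC1 and 540.5, 371 and 634 in mature cDC2, and the libraries overlapped. Its difference was -0.03 (SE 0.25, limma adjusted p = 0.959) after -3.62 in immature cells, and the change of 3.59 (SE 0.35, adjusted p = 8.76e-07) arose as it fell by 3.23 in cDC1. The lysosomal enzymes Naaa and Ppt1, which hydrolyse fatty acid amides and remove palmitate from proteins, fell steeply. Naaa went from 46660 ± 4358 normalized reads in immature cDC1 to 199, 128 and 295, beside 322, 353 and 173 in mature cDC2. Ppt1 went from 71803 ± 5042 to 942, 851 and 1608, beside 1059, 1113 and 858. Neither gene separated the mature subsets any longer (0.46 and -0.12, limma adjusted p = 0.197 and 0.727). Naaa was called higher in cDC2 when the third library of both subsets was left out (1.07, limma adjusted p = 0.000426).

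Id2 and Ly75 converged in the opposite way, by rising in both subsets and more in cDC2. Id2, the inhibitor of E proteins required for cDC1, reached 34866, 44967 and 41425 normalized reads in mature cDC1 and 19834, 27712 and 31844 in mature cDC2, and its difference went from -2.12 to -0.63. Ly75, the endocytic receptor DEC-205, rose by 2.68 in cDC1 and 3.85 in cDC2, and its remaining difference of -0.82 was under 2-fold although its groups did not overlap. Cd24a, the protein of the gate, was also under 2-fold in mature cells (-0.62). Batf3 was no identity gene by this rule (-0.86 in spleen), and reached 4509, 4800.5 and 5683 normalized reads in mature cDC1 and 5405, 4949 and 3243 in mature cDC2.

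The 3 listed cDC1 genes that reversed were Wdfy4, Tlr12 and Cxcr3. Wdfy4, which is required for cross-presentation of cell-associated antigens, fell from 112310 ± 12850 to 1018, 863 and 1763 normalized reads in cDC1, and from 58425 ± 2423 to 2959.6, 3237 and 2089 in cDC2. It was therefore higher in mature cDC2 by 1.23 (SE 0.24, limma adjusted p = 0.000847). Tlr12, the partner of Tlr11, measured 135, 95.3 and 259.9 in mature cDC1 and 427, 399 and 229 in mature cDC2, a difference of 1.18 (SE 0.34, adjusted p = 0.0166). The Tlr12 libraries overlapped, cDC2 replicate 3 lay with cDC1, and the call was lost without cDC1 replicate 2 (0.86, adjusted p = 0.102). With replicate 3 as the sole cDC2 library, the differences of Wdfy4 and Tlr12 were 0.85 and 0.61, under 2-fold. With replicate 3 as the sole cDC1 library they were 0.62 and 0.38. Cxcr3 was at 0, 0 and 0.80 normalized reads in mature cDC1 and 5.37, 2.09 and 2.35 in mature cDC2, too close to the count floor in both for a fold to be read.

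Tlr3, the receptor for double-stranded RNA, depended on cDC2 replicate 3. It fell to 18.4, 5.20 and 14.4 normalized reads in mature cDC1 and to 42.2, 50.8 and 1.57 in mature cDC2. Over all libraries it converged (0.54, SE 0.75, limma adjusted p = 0.652). Without cDC2 replicate 3 it was called higher in cDC2 (1.95, adjusted p = 0.00495), and with that replicate alone it was called lower (-2.26, adjusted p = 0.024), so no direction can be given for mature cells. Rab7b, a late endosomal GTPase, likewise went from 0.46 to 1.12 (adjusted p = 0.0679) without replicate 3 and was then called higher in cDC2.

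Promoter sequences are shown for 4 genes that stand for these fates. They are the 250 bases upstream of the RefSeq start on GRCm38.p6, on the strand of the gene, and capitals mark a PU.1-IRF composite element (GGAANNGAAA), an interferon-stimulated response element (ISRE, GAAANNGAAA) or a kappa B element (GGGANNTTCC), each searched on both strands; the first 2 end in the same letters and may share bases. Of 27025 genes with a promoter in the table, 2.68% held the composite, 3.46% the ISRE and 1.36% the kappa B letters. An AP-1 element (TGANTCA, 7.82% of all) was searched too. A match is a description of the letters and no evidence of binding. Of the tested genes 69.6% had a promoter in the table, too few for shares over the fates to be given. Cd8a (retained, 2 composite matches, chr6:71373177-71373426, plus strand), Tlr11 (converged, 1 ISRE, chr14:50357664-50357913, plus strand), Clec7a (retained and narrowed, higher in cDC2, 1 composite, chr6:129472780-129473029, minus strand) and Csf1 (reversed to cDC1, 1 kappa B, chr3:107760470-107760719, minus strand) read as follows.
Cd8a: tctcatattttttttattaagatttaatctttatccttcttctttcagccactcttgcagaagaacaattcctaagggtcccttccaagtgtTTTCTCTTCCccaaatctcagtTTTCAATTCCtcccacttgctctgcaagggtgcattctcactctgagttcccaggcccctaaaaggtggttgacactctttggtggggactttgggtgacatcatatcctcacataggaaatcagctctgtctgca
Tlr11: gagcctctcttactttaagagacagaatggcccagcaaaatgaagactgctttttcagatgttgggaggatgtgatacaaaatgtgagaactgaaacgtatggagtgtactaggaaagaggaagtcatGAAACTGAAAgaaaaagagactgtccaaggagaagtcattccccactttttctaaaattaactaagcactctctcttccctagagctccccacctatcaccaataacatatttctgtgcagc
Clec7a: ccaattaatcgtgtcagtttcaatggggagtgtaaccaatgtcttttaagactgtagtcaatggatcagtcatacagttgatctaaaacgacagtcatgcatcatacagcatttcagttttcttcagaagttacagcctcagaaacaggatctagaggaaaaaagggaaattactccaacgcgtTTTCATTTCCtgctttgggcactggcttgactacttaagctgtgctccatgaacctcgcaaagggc
Csf1: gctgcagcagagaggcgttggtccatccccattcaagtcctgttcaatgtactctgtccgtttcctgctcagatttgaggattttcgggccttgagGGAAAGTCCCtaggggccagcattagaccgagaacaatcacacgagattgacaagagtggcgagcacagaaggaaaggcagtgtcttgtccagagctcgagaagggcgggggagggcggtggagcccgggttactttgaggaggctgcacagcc

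Among 32 named cDC2 identity genes, 25 were higher in mature cDC2, against 14.6% of all tested genes, 1 (Clec12a) was lower and 6 were not called. The median difference was 3.68 in spleen, 4.16 in immature thymic and 3.27 in mature thymic cells. Sirpa (ENSMUSG00000037902, chromosome 2, 129592835 to 129632228) differed by 4.24 (SE 0.25, limma adjusted p = 1.45e-09). Irf4 (ENSMUSG00000021356, chromosome 13, 30749226 to 30766976) measured 2136, 1821 and 3117 normalized reads in mature cDC1 and 7469.9, 8894 and 8473 in mature cDC2, a difference of 1.84 (SE 0.30, adjusted p = 0.000148) that had narrowed from 5.77. The mean of Irf4 in immature cDC1 was 189 ± 80.8, so that the narrowing came with a rise of 3.73 in cDC1 and no called change in cDC2 (-0.19). For Irf8 and Irf4, then, the factor of each lineage had no called change in its own subset and rose in the other.

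Zeb2, a repressor that drives cDC2 over cDC1 fate, differed by 3.51 (SE 0.42, limma adjusted p = 4.32e-06), at 254, 191 and 178 normalized reads against 2025, 2328 and 2736. Spib rose in both subsets and stayed apart, at 1158, 979 and 1646 against 8134, 7078 and 5239.8. Klf4 was not called in mature cells (0.83, under 2-fold), although it was without cDC1 replicate 3 (1.02) or cDC2 replicate 1 (1.06), Notch2 was not either (0.34), and Ltb, S100a4 and Clec4a4 were other listed genes without a call. Irf4, Zeb2 and Klf4 in cDC2 replicate 3 stood at 1.04, 1.26 and 1.34 times the mean of the other 2 libraries.

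Cd209a, the cDC2 member of the DC-SIGN family, fell from 18624 ± 1356 normalized reads in immature cDC2 to 187, 215 and 23.5, beside 0, 1.73 and 6.40 in mature cDC1. Csf1r, the M-CSF receptor, measured 3826, 3892 and 595 in mature cDC2 and 1.84, 64.1 and 54.4 in mature cDC1. Both genes were still separated without overlap. The ratio of replicate 3 to the mean of the other 2 libraries was 0.117 for Cd209a and 0.154 for Csf1r, and 15 of the 27 cDC2 identity genes with a mean of at least 50 were under 0.5 (median 0.38). Without replicate 3 the list gave 26 genes higher, so the direction of the list did not rest on that library. The list holds genes that also mark macrophages and monocytes, such as Lyz2, Csf1r and Cx3cr1. The part of those cells in the calls of the list was not tested. Cd209b and Cd209c, further members of the DC-SIGN family, converged, at 0 to 2.09 and 0 to 4.18 normalized reads in mature cells, from means of 195 and 514 in immature cDC2. Clec7a, the beta-glucan receptor Dectin-1, measured 2478, 2827 and 2760 in mature cDC1 and 4609, 9261 and 7118 in mature cDC2, narrowing from 4.45 to 1.32 (SE 0.22, limma adjusted p = 0.000178).

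Clec12a went the other way from the rest of its list. This inhibitory lectin measured 2688, 2579 and 2813 normalized reads in mature cDC1 and 359, 359.8 and 361 in mature cDC2, a difference of -2.90 (SE 0.18, limma adjusted p = 1.72e-09) that was -1.55 in immature thymic cells and -0.84 in spleen. By the rule above Clec12a was therefore no splenic identity gene. The retained cDC2-high genes with the largest splenic difference were Cd101, Il1rn, Clec4a3, Ptgfrn, Ccl9, Clec4a1, Gda and Clec4e. Of these, Cd101 and Ptgfrn were weakly supported. Cd101 was at 0, 0 and 2.40 normalized reads in mature cDC1 and 8.44, 11.8 and 1.57 in mature cDC2. It overlapped and was too close to the count floor for a fold to be read. Both genes lost their calls without replicate 1 of cDC1 or without replicate 1 or 2 of cDC2 (1.02 to 2.12 for Ptgfrn). Cd101 also lost its call without cDC1 replicate 2. Il1rn, the interleukin-1 receptor antagonist, differed by 7.62 in spleen and by 2.26 (SE 0.41, adjusted p = 0.000399) in mature cells, at 125, 302 and 309 against 1004, 1458 and 894 normalized reads.

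Named genes of the maturation programme mostly did not separate the mature subsets. They were listed as genes that mature cDCs share, so few differences between mature subsets are built into the choice. Among 36 named maturation genes 34 were not called between the mature subsets, 1 (Aldh1a2) was higher and 1 (Il12b) lower in cDC2. In immature thymic cells 19 had been called higher and 5 lower, against 11% and 5.42% of all tested genes. The median difference of the list went from 1.65 to -0.184. Of the 36, 20 moved toward cDC1 by the difference of differences, against 5.25% of all tested genes. That count also follows in part from the choice, given the 19 genes higher in immature cDC2. Replicate 3 of cDC2 was under 0.5 of the other libraries in 1 of the 36 (median ratio 0.884). The list accounted for 11 of the 278 converged cDC2-high genes.

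H2-M2, a non-classical class I gene, reached 25649, 22732 and 28791 normalized reads in mature cDC1 and 25691, 29965 and 34330 in mature cDC2, from 189 ± 43.0 and 2634 ± 383. Its difference went from 3.82 to 0.22 (SE 0.19, limma adjusted p = 0.454). Cd274, the checkpoint ligand PD-L1, reached 33524, 33200 and 31827 beside 20325, 26804 and 32136, and Pdcd1lg2, which encodes PD-L2, reached 2924, 2792 and 3292 beside 2474, 2788 and 2687. The immature difference of 5.27 in Pdcd1lg2 was thus reduced to -0.18. Stat4, a transducer of interleukin-12 and interferon signals, rose by 9.04 in cDC1 and 4.66 in cDC2, with no called difference in mature cells (0.17, adjusted p = 0.89).

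Other genes of the programme were not called between the mature subsets as well. Cd63, a tetraspanin of late endosomes, Il4i1, a secreted amino acid oxidase, and Anxa3 went from immature differences of 4.41, 4.52 and 3.58 to -0.25, 0.53 and 0.00. Fscn1, the actin bundler of dendrites, measured 164340, 156980 and 209830 against 170180, 152160 and 95263 normalized reads. Relb, Cd40, Ccl22 and Socs2 were not called either (0.20, -0.38, 0.39 and 0.30). Ccl17, a ligand of CCR4, had a difference of 1.62 with no overlap, but its SE of 0.71 left it uncalled (limma adjusted p = 0.108). It was called under 8 alternatives, among them edgeR with TMM factors (1.66, adjusted p = 0.00256), DESeq2 (1.62, adjusted p = 9.78e-05) and limma with the label number as a block (1.59, adjusted p = 0.0913).

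**Figure D4:**
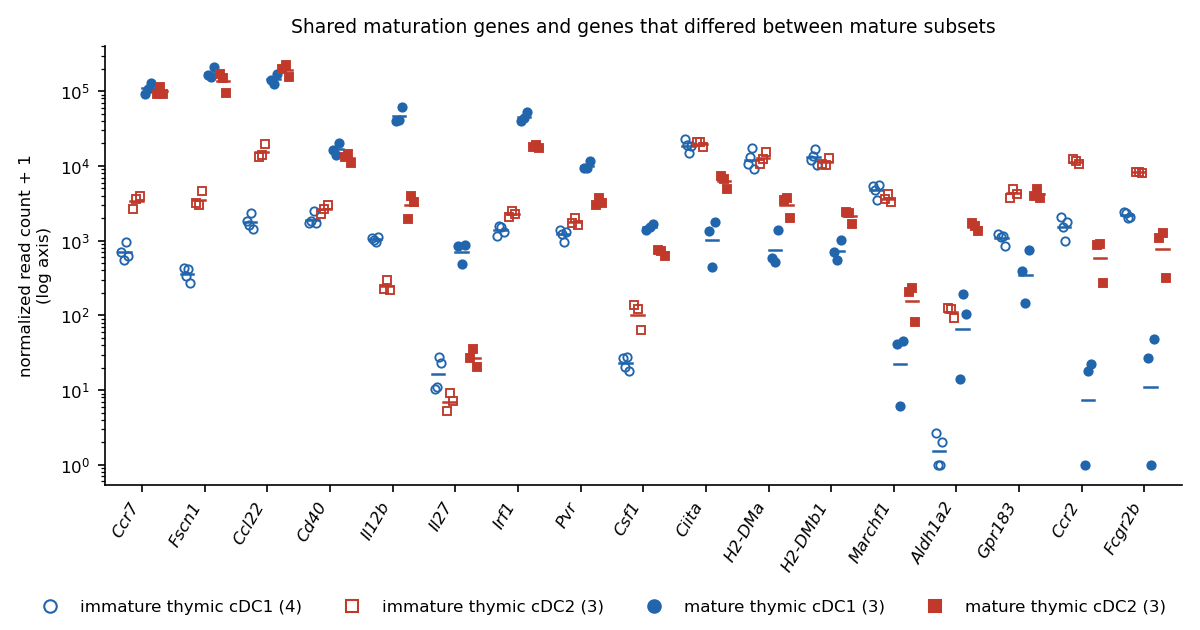
Normalized read counts (plus 1, log axis) of shared maturation genes and of genes that differed between the mature subsets, 1 point a library in each thymic group. Lines mark the geometric mean of each group. Ccr7, Fscn1 and Ccl22 meet in the mature groups, whereas Il12b (40400 to 61276 in cDC1 against 1975 to 4019.5 in cDC2) and Aldh1a2 separate.

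Il12b, the p40 subunit of interleukin-12 and interleukin-23, was the listed maturation gene called in favour of cDC1. It measured 40400, 40659 and 61276 normalized reads in mature cDC1 and 1975, 4019.5 and 3316 in mature cDC2. The difference of -3.97 (SE 0.26, limma adjusted p = 3.24e-09) exceeded that of immature cells (-2.11) by 1.86 (SE 0.35, adjusted p = 0.00143), with a rise in both subsets. Aldh1a2, which makes retinoic acid, was on the other side at 12.9, 191 and 104 against 1719.7, 1569.5 and 1356 normalized reads, a difference of 4.56 (SE 0.67, adjusted p = 4.25e-05). Aldh1a2 was no splenic identity gene (0.40), and its immature thymic difference was 6.21.

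The reversed cDC2-high genes were few, and 18 of 22 rose in cDC1 without a fall in cDC2. Jag1, a ligand of Notch receptors, went from 25.0 ± 5.97 to 11191, 9462 and 11587 normalized reads in cDC1 and from 61.5 ± 7.19 to 2374, 2699 and 2917 in cDC2. Its difference of 3.37 in spleen and 1.29 in immature thymic cells became -2.01 (SE 0.24, limma adjusted p = 4.99e-06). Pvr, a ligand of CD226 and TIGIT, measured 9482, 9315 and 11761 against 2982, 3681 and 3227. Csf1, the ligand of the receptor encoded by Csf1r, measured 1394, 1522 and 1677 against 752, 718 and 622, a difference of -1.13 (SE 0.30, adjusted p = 0.00931). The ligand was thus higher in mature cDC1 and its receptor in mature cDC2, over all libraries. The Csf1 difference was under 2-fold without the third library of both subsets (-0.99, limma adjusted p = 0.064). Csf1r in cDC2 replicate 3 was at 0.154 times the mean of the other cDC2 libraries. Gem, Tcn2, Megf9 and Pglyrp1 were also reversed, at -1.39, -1.23, -1.58 and -2.69, and Gem was not called with cDC2 replicate 3 alone.

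Of the 94 reversed cDC1-high genes, those with large splenic differences included Lhfpl2, Serpinb8 and Fcrla besides Tlr12 and Cxcr3. Fcrla was at 0, 0 and 0.80 normalized reads in mature cDC1 and 8.44, 4.87 and 0.78 in mature cDC2. It overlapped and was too close to the count floor for a fold to be read. Serpinb8 was low, at 1.84, 1.73 and 3.20 against 23.8, 28.5 and 19.6. Lhfpl2 was at 0, 15.6 and 6.40 normalized reads in mature cDC1 and 166, 213 and 51.0 in mature cDC2, a difference of 4.63 (SE 0.85, limma adjusted p = 0.000456). Rxra, a nuclear receptor partner, measured 94.0, 132 and 162 against 555, 652 and 208. Replicate 3 of cDC2 was again the lowest of its group in both Lhfpl2 and Rxra. The Rxra difference of 1.74 fell to 0.72, under 2-fold, with this replicate as the sole cDC2 library.

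Subset differences called in mature cells and not before were also counted. A gene was gained when it was called in mature cells, in neither spleen nor immature thymic cells, and its difference of differences was called in the same direction. This held for 515 genes higher in mature cDC2, of which 437 fell in cDC1 with maturation, and for 103 genes lower in mature cDC2, of which 80 rose in cDC1. Without cDC2 replicate 3 the counts were 603 (432 of the 515) and 109 (71 of the 103), and with it alone 227 and 113. Without cDC1 replicate 3 they were 889 and 236, and with it alone 233 and 89.

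Il27, Irf1 and Gclc were among the genes gained by mature cDC1. Il27, a subunit of interleukin-27, measured 842, 490.4 and 874 normalized reads in mature cDC1 and 26.1, 34.1 and 19.6 in mature cDC2, a difference of -4.72 (SE 0.64, limma adjusted p = 1.75e-05). Irf1, a transcription factor of interferon responses, measured 40435, 44180 and 52848 against 17803, 18896 and 17309, and rose by 5.04 in cDC1 and 3.00 in cDC2. Gclc, the catalytic subunit of glutathione synthesis, measured 38239, 33512 and 51568 against 6069, 6376 and 7522. All 3 genes were apart without overlap. Thbs4, a matrix protein, reached 1934, 2476 and 2289.9 against 116, 118 and 122, from near 0 in both immature subsets, and Grid1, a glutamate receptor subunit listed at 0 in every immature thymic library, reached 369, 258 and 189 against 17.7, 7.66 and 7.06.

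The largest differences in favour of mature cDC1, whatever their history, were those of Spock1, Dgkk, Prph, Cpne8, Clec9a, Il27, Grid1, Xcr1, Esyt3 and Serpind1. Spock1, a proteoglycan, measured 894, 541 and 637 normalized reads against 5.37, 1.39 and 0, a difference of -8.09 (SE 0.64, limma adjusted p = 2.69e-08). Prph, an intermediate filament gene known from neurons, measured 2933, 3222 and 3243 against 63.0, 64.0 and 19.6. Dgkk, a diacylglycerol kinase, was a retained identity gene that rose in both subsets, and differed by -6.87 (SE 0.54).

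Among the largest differences in favour of mature cDC2 were those of Lyz1, Cx3cr1, Mmp12, Emr4, Stab1, Cmklr1, Abcd2, Itga9 and C1qa. Lyz1, a lysozyme, measured 3.69, 0 and 6.40 normalized reads in mature cDC1 and 781, 1166 and 229 in mature cDC2, a difference of 7.51 (SE 0.56, limma adjusted p = 1.26e-08). Cx3cr1, the fractalkine receptor, was at 0, 3.47 and 3.20 against 849.9, 775 and 160.1. C1qa, a complement subunit, was at 7.37, 6.93 and 146 against 4196, 4445 and 532. Abcd2, a peroxisomal transporter, was the gene of these examples with the least spread in cDC2, at 295, 221 and 214.

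Several of those genes also mark macrophages and monocytes, whose 15-gene list was called higher in mature cDC2 in 12 and lower in 0, against 14.6% and 4.36% of all tested genes. In immature thymic cells 12 of the 15 had been higher, and in spleen 11 of 15, against 11% and 9.93% of all tested genes. The difference was thus not particular to mature cells. C1qb, another complement subunit, stood at 31.3, 46.8 and 106 normalized reads in mature cDC1 and at 4526, 5056 and 480.3 in mature cDC2. Replicate 3 was under 0.5 of the other libraries in 8 of the 13 markers with a mean of at least 50 (median ratio 0.354), with a ratio of 0.1 for C1qb. Adgre1, which encodes F4/80, stood at 79.3, 6.93 and 67.2 against 1012, 974 and 516. With replicate 3 alone, 8 of the 15 markers were called higher in cDC2, and 173 (26.8%) of the 646 retained cDC2-high genes were under 0.5 of both other libraries in it, against 11% of all tested genes. Without cDC1 replicate 3 the list again gave 12 higher. The study's sort stain included F4/80, and it defines cDC2 as F4/80-, whereas the labels of these libraries name F4/80 exclusion in the cDC1 gate only. The part of macrophages or monocytes in the cDC2 values was not tested.

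**Figure D5:**
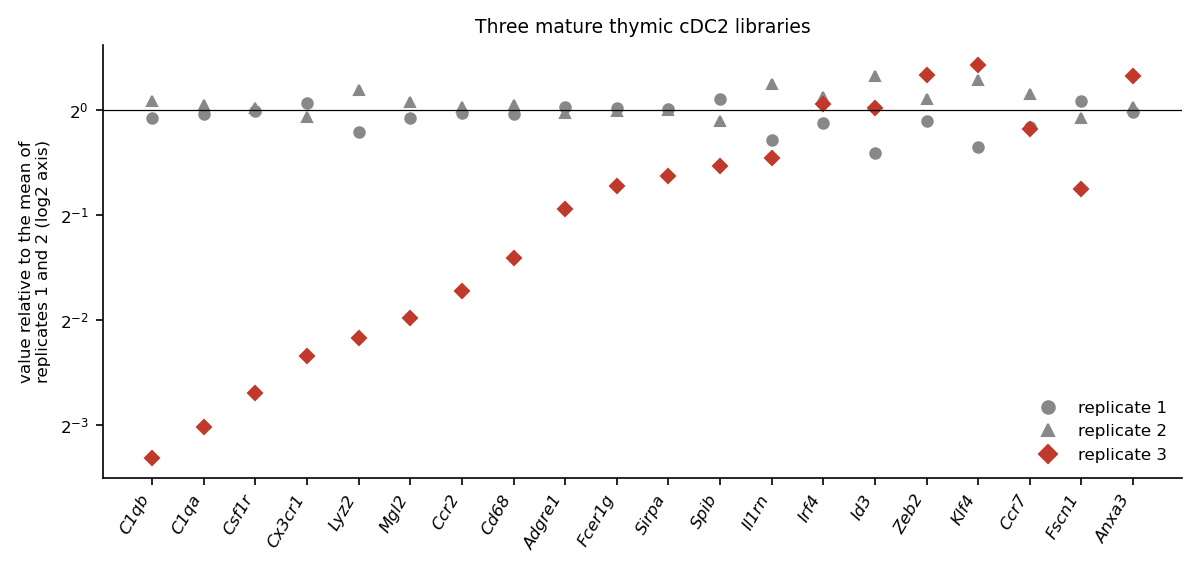
Level of each mature cDC2 library relative to the mean of replicates 1 and 2 (log2 axis) for examples of macrophage markers, cDC2 identity genes, transcription factors and maturation genes, 1 point a gene and library. Replicate 3 lies lowest for C1qb (ratio 0.1) and near the other libraries for Irf4 and Id3 (1.04 and 1.01).

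Markers of other cell types were checked in the same way, and their counts stand against 14.6% of all tested genes called higher and 4.36% called lower. Of 13 tested T cell and thymocyte markers, Cd4 was higher and Cd8b1 lower in mature cDC2 and 11 were not called, with sums of 3272, 2449 and 2227 normalized reads in cDC1 and 2507, 3575 and 2023 in cDC2. Of 10 plasmacytoid DC (pDC) markers 5 were higher and 0 lower, with sums of 6181, 6620 and 9707 against 15020, 15130 and 11290, while Siglech, a defining marker, stood at 0, 0 and 24.0 against 36.1, 37.6 and 40.8. Of 5 B cell markers 1 (20%) was higher, with sums of 927.2, 958.4 and 1117 against 1658, 1684 and 1492. Of 8 thymic epithelial markers 2 (Epcam and Psmb11, 25%) were higher and 0 lower, 4 being higher without cDC1 replicate 3, with sums of 1856, 2182 and 2675 against 4968, 3955 and 4258. Only the T cell sums overlapped among these 4 lists. Aire made up most of the thymic epithelial sums in mature cells. It was not called between the mature subsets, and its values are given below. NK cell markers (1 of 3 higher; sums at most 2.399 in cDC1 and 20.73 in cDC2), neutrophil markers (0 of 2 called; 18.43 to 102.2 against 9.418 to 16.01) and erythroid markers (0 of 2 called; at most 18.43 in either subset) were near the count floor or low. Of 10 proteins used in sorting, 5 genes were higher in mature cDC2 and 0 lower. The part of these cells in the results was not tested.

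Antigen presentation on class II differed in its regulators and its peptide exchange factors. Of 23 genes of the pathway 9 were higher and 1 lower in mature cDC2, against 14.6% and 4.36% of all tested genes. Ciita, the master regulator of class II transcription, fell from 18975 ± 3311 normalized reads in immature cDC1 to 1336, 442 and 1801, and from 19999 ± 1581 in immature cDC2 to 7245, 6692 and 4971. It was thus gained by cDC2 at 2.61 (SE 0.34, limma adjusted p = 1.07e-05). H2-DMa and H2-DMb1, subunits of the H2-DM exchange factor, were gained at 1.98 and 1.53. With cDC1 replicate 3 as the sole cDC1 library, the H2-DMa difference was 1.09. Marchf1, the ligase that removes class II from the surface, was gained at 2.80, with values of 40.5, 5.20 and 44.0 against 206, 235 and 80.1.

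The class II chains themselves were less clear. H2-Ab1 measured 22456, 16242 and 63629 normalized reads in mature cDC1 and 81745, 85953 and 45006 in mature cDC2. The libraries overlapped, and its call (1.26, SE 0.43, limma adjusted p = 0.0417) was lost on leaving out replicate 1 or 2 of either subset (0.85 to 1.12, adjusted p = 0.133 to 0.223). Replicate 3 of cDC1 lay with cDC2, and with it as the sole cDC1 library the difference was 0.10. H2-Aa and Cd74 were not called (0.54 and 0.47). H2-Aa was called higher in cDC2 when the third library of both subsets was left out (1.11, limma adjusted p = 0.017). Cst3, an inhibitor of cathepsins, was the gene of the list lower in cDC2, at -1.23 (SE 0.31, adjusted p = 0.00599), after -2.01 in immature cells, and lost its call without cDC1 replicate 3 (-0.99).

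Lysosomal proteases of the pathway moved unequally. Ctsl measured 122, 194 and 217 normalized reads in mature cDC1 and 499.8, 754 and 509 in mature cDC2, a retained difference of 1.74 (SE 0.26, limma adjusted p = 6.1e-05). Ctss, an endopeptidase that degrades the invariant chain, was 19547, 19599 and 23935 against 32750, 36749 and 28327, a difference of 0.63 without overlap and under 2-fold. Prss16, the thymus-specific serine protease, was low and overlapped (9.22, 74.5 and 40.8 against 50.7, 91.9 and 76.1, limma adjusted p = 0.25), and was called higher in cDC2 (1.80) without cDC1 replicate 2. Ctsd was higher in cDC2 by 2.48 (SE 0.47) with replicate 3 lowest, at 3319, 3363 and 754. Ctse, at 0, 20.8 and 23.2 against 40.7, 70.3 and 25.9, lost its call without cDC1 replicate 1 (0.91) or cDC2 replicate 2 (2.05). Lgmn rose in both subsets and was not called between them (-0.49, adjusted p = 0.118). With cDC2 replicate 3 alone, the calls of Marchf1 (1.84), H2-Ab1 (0.66), Ctsd (1.04) and Ctse (1.74) were lost. On the class I side, 3 of 22 genes (Wdfy4, Cybb and Rac2) were higher in mature cDC2 and 0 lower, a share of 13.6% that is near the 14.6% of all tested genes. H2-K1 differed by -0.23.

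Among 30 genes of pattern recognition 17 (56.7%) were higher in mature cDC2 and 0 lower, against 14.6% and 4.36% of all tested genes, and of the 17, 14 were retained identity genes. Rigi, an RNA sensor, lost its call (1.09) without cDC1 replicate 1 (0.94). Tlr8 was not detected in mature cDC1 and measured 101, 131 and 45.5 normalized reads in mature cDC2, at least 21.2-fold higher than a floor of 3 reads per library. Tlr4, the LPS receptor, was gained, at 0, 1.73 and 0 against 59.9, 59.2 and 40.8, and fell by 5.63 in cDC1. Nlrc4 and Nlrp3, sensors of inflammasomes, differed by 3.13 and 2.40. Tlr1 measured 186, 256 and 272 against 1056, 976 and 986, the narrowest spread in cDC2 of those named. Tlr2 and Tlr9 were not called (0.69 and 0.48). Among 8 tested Fc receptor genes 7 (87.5%) were higher in mature cDC2 and 0 lower. Fcgr2b, the inhibitory IgG receptor, was gained at 6.13 (SE 0.85, limma adjusted p = 2.38e-05), with 25.8, 0 and 48.0 against 1094, 1276 and 320.2 normalized reads, and fell by 7.67 in cDC1.

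Of 18 tested chemokine and positioning receptors 8 (44.4%) were higher and 3 (Xcr1, Cxcr1 and S1pr1, 16.7%) lower in mature cDC2, against 14.6% and 4.36% of all tested genes. Ccr2 measured 0, 17.3 and 21.6 normalized reads against 869.8, 903 and 268. Gpr183, the oxysterol receptor that positions cDC2, measured 387, 144 and 750.0 against 4019.8, 4974 and 3769, and its difference widened from 2.01 to 3.60 (SE 0.35, limma adjusted p = 3.48e-07). Both were apart without overlap. The Cxcr1 call was lost under edgeR with TMM or RLE factors (adjusted p = 0.131 and 0.123) and under DESeq2 (adjusted p = 0.725). It was also lost with only the groups compared in the fit (-3.15, limma adjusted p = 0.117). S1pr1, a receptor for egress from lymphoid tissue, was lower at -2.46 (SE 0.99, adjusted p = 0.0807) and lost its call on leaving out any 1 of the 6 mature libraries (-2.21 to -2.73). Of 14 tested chemokines 7 (50%) were higher in mature cDC2 and 0 lower. Ccl9 measured 162, 72.8 and 146 against 669, 750.3 and 433, and its difference narrowed from 6.83 to 2.31.

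Among 20 tested cytokines 5 were higher (Il1a, Il1b, Il1rn, Il18 and Osm) and 4 lower (Il12b, Il27, Itgb8 and Csf1) in mature cDC2, which is 25% and 20% against 14.6% and 4.36% of all tested genes; Itgb8, an integrin chain, was listed here as an activator of TGF-beta. Il1b measured 511, 541 and 896 normalized reads in mature cDC1 and 3383, 5732 and 2654 in mature cDC2, a difference of 2.56 (SE 0.26, limma adjusted p = 5.17e-07) that had changed by -0.04 (SE 0.35) from immature cells. Osm narrowed from 6.68 to 1.03 (SE 0.28, adjusted p = 0.0106). The Osm call was lost without replicate 1 or 2 of cDC1 or replicate 2 of cDC2 (0.82 to 0.96) and with the label number as a block (0.97). Itgb8 was lower at -1.36 (SE 0.52, adjusted p = 0.0632) and was not called without replicate 1 of cDC1 or without any 1 replicate of cDC2. Tnf, Il15 and Ebi3 were not called (-0.94, -0.33 and -0.55), and Tnf was called lower by DESeq2 (-1.01) and without replicate 1 or 2 of cDC1 (-1.05 and -1.10). The Il18 call (1.65) was lost without cDC1 replicate 1 (0.73).

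Of 23 costimulatory and coinhibitory ligands 17 (73.9%) were not called, against 81.1% of all tested genes. A further 5 (21.7%) were higher in mature cDC2, against 14.6%, and 1 (Pvr, 4.35%) lower, against 4.36%. By the difference of differences 9 of the 23 moved toward cDC1, against 5.25% of all tested genes. Cd80 and Cd86 measured 6791, 6722 and 7158 and 6535, 5064 and 7763 normalized reads in mature cDC1, with differences of -0.73 and -0.45 that were under 2-fold. Tnfsf4, which encodes OX40L, was higher in cDC2 at 122, 26.0 and 144 against 326, 679 and 381. Havcr2, which encodes TIM-3, was higher in cDC2 at 206, 208 and 315 against 616, 797 and 364, and fell by 5.33 in cDC1 and fell by 4.26 in cDC2. Neither was called with cDC2 replicate 3 alone, and Tnfsf4 lost its call without cDC1 replicate 2 (1.72) and Havcr2 without cDC2 replicate 2 (0.99).

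Of 49 transcription factors 15 were higher and 3 (Irf8, Irf1 and Batf) lower in mature cDC2, against 14.6% and 4.36% of all tested genes. Id3 measured 59.0, 31.2 and 67.2 normalized reads in mature cDC1 and 296, 489 and 396 in mature cDC2, a retained difference of 2.92 (SE 0.61, limma adjusted p = 0.00136). Runx1 and Cebpa differed by 1.95 and 2.53. Zbtb46, the transcription factor that marks cDCs, did not separate the subsets (-0.15), at 5095, 4152 and 6439.6 against 4896, 4466 and 4588. Prdm1, which encodes BLIMP-1, was 643, 529 and 548 against 1257, 1179 and 1628 without overlap, but missed the threshold (1.23, SE 0.53, limma adjusted p = 0.101). It was called under 8 alternatives, among them edgeR with TMM factors (1.26, adjusted p = 0.0138) and DESeq2 (1.22, adjusted p = 0.00125).

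Of 25 interferon-stimulated genes 17 were higher in splenic cDC2, against 9.93% of all tested genes. In mature cells 6 (24%) were higher, 2 (Oasl1 and Gbp5, 8%) lower and 17 (68%) not called, against 14.6%, 4.36% and 81.1% of all tested genes, and 12 moved toward cDC1, against 5.25%. Rsad2 converged at -0.32, with 4301, 4672 and 5570.4 normalized reads against 3085, 3698 and 5046. Ifit3 narrowed from 4.81 to 2.68 and Oasl2 from 4.29 to 1.14, the latter not called without cDC1 replicate 2 (0.98). Gbp5 (-1.77, limma adjusted p = 0.0877) lost its call on leaving out replicate 1 or 2 of either subset. Of 16 integrin genes 8 (50%) were higher and 2 (Itgae and Itgb8, 12.5%) lower in mature cDC2. Itgam, which encodes the CD11b of the cDC2 gate, was not detected in mature cDC1 and measured 25.3, 32.7 and 3.14 in mature cDC2, down from 417 ± 101 in immature cDC2, at least 4.66-fold above the floor. Of 10 tested enzymes of retinoid, tryptophan and arginine metabolism 3 (Aldh1a2, Kynu and Kmo, 30%) were higher in mature cDC2 and 0 lower, and Kynu lost its call without cDC1 replicate 2 (0.96).

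For some named genes the values may include reads of a neighbour, because the strand setting of the counting is not given in the sources used here. Exons of an opposite-strand gene overlap those of Ciita (Dexi), Tlr3 (Gm45542), Cd274 (AC119228.1), H2-DMa (Brd2), Ppt1 (Cap1), Il27 (Apobr), Irf1 (Gm17334), Fcgr2b (Gm38204), Snx22 (Ppib), Csf1r (Hmgxb3), Zeb2 (Zeb2os), Ly75 (Gm13571), Marchf1 (Gm15354) and Cx3cr1 (Gm33858). Without strand these pairs cannot be told apart. H2-M2, the Fcgr genes and the Lyz1 and Lyz2 pair belong to families with similar sequence, and their values are uncertain to the extent that reads were shared.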

How the data were processed

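The authors sequenced stranded mRNA libraries of FACS-sorted cells, aligned the reads with STAR 2.6 to mm10, assigned them to Ensembl genes by HTSeq-count, and used DESeq2 1.24.0 for normalization. The annotation release and strand setting are not given in the sources used here. The deposited values, a normalized signal, are the read count of a gene divided by 1 size factor per library: 100% of values were whole reads within 0.01. The 21 libraries held 14266867 to 40119669 reads, and splenic cDC1 replicates 4 and 5 were merged (20 samples). Of 37734 genes, 14970 reached a value of 10 in 3 or more samples and were tested with limma 3.58.1 (R 4.3.3) on log2(value + 1), with a trended variance over 6 groups. edgeR 4.0.16 and DESeq2 1.42.0 were run on the recovered reads as alternatives. The tests were checked on simulated data. Fold changes on this scale understate low genes, and floors (3 reads) cover counting error only.

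Subset identity genes, gene lists and the genes named were chosen with earlier results of these data known. Genes named are members of the lists and, with a mean of at least 100 in the higher group, the 10 largest differences per direction, the 8 largest splenic differences per fate and direction, the 8 largest gained differences per direction and the 5 genes furthest above and below in mature cDC2 replicate 3. Genes near the floor in both mature groups were mostly left without a fold. Replicate numbers follow the order of the samples. The numbers in the libraries' labels are shared by mature cDC1 and cDC2 for 1 library each, so a block on the label number is only an alternative. Results for a few genes are not reported here.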

Additional observations from a re-analysis of the deposited data

Results flagged for a closer look

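The values below are those of 31 named genes in which the subset difference changed between immature and mature thymic cells, by the test of the difference of differences (limma, adjusted p below 0.1 and over 2-fold), and for which that test was also made under each alternative. Other named genes in which it was called are counted with their lists and fates in the report. Each value is the mature difference minus the immature difference on the log2 scale, cDC2 minus cDC1, and the genes were named with these results known. The cDC1 genes moved toward cDC2. Receptors and lysosomal genes among them were Tlr3 (4.25), Tlr11 (3.59), Tlr12 (4.92), Naaa (3.27), Ppt1 (4.00), Rab7b (5.11), Wdfy4 (2.17) and Xcr1 (2.09), and Irf8 (3.15), Id2 (1.49) and Ttc39a (5.04) moved the same way. Without a splenic call, Ciita (2.52), H2-DMa (1.91) and Fcgr2b (4.25) also moved toward cDC2.

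Genes of the shared maturation programme and of cDC2 moved toward cDC1, as did Irf1, which was gained by mature cDC1. Among ligands, receptors and secreted factors these were Pdcd1lg2 (-5.45), Cd274 (-3.44), Il4i1 (-4.00), Cd63 (-4.66), H2-M2 (-3.60), Clec7a (-3.12), Il1rn (-4.72), Ccl9 (-4.52), Osm (-5.65), Csf1 (-3.29), Jag1 (-3.30), Pvr (-2.17) and Il12b (-1.86). Among transcription factors and interferon-stimulated genes they were Stat4 (-4.38), Irf4 (-3.92), Irf1 (-2.04) and Ifit1 (-3.77). With mature cDC2 replicate 3 as the sole cDC2 library, the change was no longer called in Tlr3 (1.45), Xcr1 (1.44), H2-DMa (1.35) and Fcgr2b (2.99). With cDC1 replicate 3 as the sole cDC1 library it was not called in Xcr1 (1.67) and H2-DMa (1.02), and within lane 8, which held all mature libraries, not in Xcr1 (1.48, adjusted p = 0.114) and Fcgr2b (4.21, adjusted p = 0.129).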

How the results depend on the processing

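On the recovered reads, edgeR called 1829 genes higher and 732 lower in mature cDC2 with TMM factors, 1764 and 783 with RLE factors, and DESeq2 1870 and 889. The counts of called genes and fates stayed within 1.5 times of their main values under edgeR with TMM or RLE factors, TMM or upper quartile rescaling and thinning to equal depth. A minimum of 10 in all samples (10135 genes) removed genes that are absent from 1 group and gave 1128 mature calls (788 higher and 340 lower in cDC2), 1086 immature, 1308 splenic and 1183 difference-of-differences calls, 4095 and 3123 maturation calls in cDC1 and cDC2, 248 retained, 180 converged and 12 reversed cDC2-high genes, 117, 138 and 37 cDC1-high genes, and 236 and 59 gained cDC2-high and cDC1-high genes. A log2 difference above 2 gave, in the same order, 1574 (1285 and 289), 1420, 1258, 1105, 3798 and 2731, then 332, 145 and 6, then 92, 121 and 22, and 319 and 46. The adjusted p alone gave 4535 mature calls (1387 lower), 3892 immature and 4394 splenic calls, 136 reversed cDC2-high, 507 retained and 255 reversed cDC1-high and 188 gained cDC1-high genes. DESeq2 gave 35 reversed cDC2-high and 173 gained cDC1-high genes, and pseudocounts of 0.1 and 8 gave 66 and 184 gained cDC1-high genes. With the groups compared alone in the fit there were 1704 mature calls (1250 higher), 52 reversed cDC1-high and 257 gained cDC2-high genes. Lane 8 alone (14 samples) gave 1659 splenic and 1218 difference-of-differences calls, 346 retained cDC2-high, 117 converged and 42 reversed cDC1-high, and 242 and 58 gained genes. Array weights gave 181 reversed cDC1-high genes. Identity taken from the immature thymic call gave 53 reversed cDC1-high genes, and identity from both calls 3 reversed cDC2-high and 28 reversed cDC1-high genes. The cause of these changes was not tested beyond what each setting removes.

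Leaving out 1 mature library at a time gave 354 to 889 gained cDC2-high and 88 to 236 gained cDC1-high genes, both highest without mature cDC1 replicate 3, and 2291 to 3589 mature calls. The next settings were chosen after seeing the data. Without the third library of both subsets there were 167 reversed cDC1-high genes and 1000 and 233 gained genes. Mature cDC2 replicate 3 alone gave 1662 mature calls (1127 higher), 1306 difference-of-differences calls, 409 retained cDC2-high, 44 reversed cDC1-high and 227 gained cDC2-high genes, and mature cDC1 replicate 3 alone gave 1563 (1084 higher), 50 reversed cDC1-high and 233 gained cDC2-high genes. A single library is assumed to vary like the other groups. Of 6709 values of named genes under alternatives, 6421 kept direction and call, 216 lost and 70 gained the call, and 2 reversed, namely Tlr3 with cDC2 replicate 3 alone (-2.26) and Serpinf1 with cDC1 replicate 3 alone (-0.44).

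The label number as a replicate block (consensus correlation 0.155) gave 2132 genes higher and 635 lower in mature cDC2, and among the named genes it ended the call of Osm (0.97) and made one for Ccl17 (1.59). Since 1 number pairs the mature groups, the check of pairing by correlations could not be made, and the labels do not say that a number marks a shared pool or day.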

Other observations

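Some genes of other tissues were high in mature thymic cDCs. Aire, the regulator of tissue-restricted antigens known from medullary thymic epithelium, rose to 1550.3, 1776 and 2053 normalized reads in mature cDC1 and 3978, 2807 and 3439 in mature cDC2, from 10.3 ± 8.80 (SD, n = 4) and 43.4 ± 21.6 (SD, n = 3) in immature cells. The mature libraries did not overlap, but the difference was not called (0.92, SE 0.67, limma adjusted p = 0.358). Psmb11, the thymoproteasome subunit of cortical epithelium, was at 1.84, 0 and 19.2 against 103, 109 and 111, and was among the genes gained by cDC2 (4.82, SE 0.88, adjusted p = 0.00042). The same direction held for P2rx7, an ATP-gated channel, at 0, 0 and 22.4 against 154, 165 and 39.2, which fell by 8.43 in cDC1. It also held for Pla2g2d, a secreted phospholipase, at 5.53, 3.47 and 75.2 against 394, 484 and 176. The differences of Psmb11 and Pla2g2d, 4.82 and 4.63 over all libraries, were 2.43 and 2.09 with cDC1 replicate 3 as the sole cDC1 library. That of Pla2g2d was 3.76 with cDC2 replicate 3 alone.

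The mitochondrial rRNA gene mt-Rnr2 was the gene furthest above the other libraries in mature cDC2 replicate 3, at 34991 normalized reads against 8369.7 and 10289. In mature cDC1 it was at 41089, 63418 and 25291. Its call as lower in cDC2 (-1.48, SE 0.52, limma adjusted p = 0.0422) was lost without cDC1 replicate 2 (-1.16) or without replicate 1 or 2 of cDC2 (-1.09 and -1.24), and was -0.21 with cDC2 replicate 3 alone.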
